A study of Mus musculus with 12 samples.

Results

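The protein kinase C isoforms examined here are 8 genes, Prkca, Prkcb, Prkcd, Prkce, Prkch, Prkci, Prkcq and Prkcz, taken by their symbols from the 24421 genes of a striatal RNA-seq count table. All 8 were found, and all 8 had enough counts to be among the 15148 genes tested. The libraries came from bilateral striatum of male C57BL/6J mice, 6 from animals injected with varenicline at 2 mg/kg and 6 from animals injected with saline. Varenicline is a smoking cessation drug that partially activates nicotinic acetylcholine receptors. Every mouse, in both groups, drank 20% ethanol in the limited-access test called Drinking-in-the-Dark, for 2 h beginning 3 h into the dark phase. The test ran over 3 cycles of 2 days. In the first cycle all mice were injected with saline, and the groups were then formed to have equal average intake. In the later 2 cycles each mouse got its own treatment 30 min before drinking on the second day. Striatum was dissected at the close of the last session, so both groups had recent ethanol and no group of mice without ethanol is used here. The labels leave unsaid whether each library is 1 mouse and how old the mice were, so the p-values below reflect variation among these libraries, which may be technical in part.

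Protein kinase C enzymes phosphorylate serine and threonine on many neuronal proteins. Receptors that couple to Gq proteins activate phospholipase C, which releases diacylglycerol in the membrane and calcium in the cytosol. Conventional isoforms, here alpha (Prkca) and beta (Prkcb), need both signals, delta (Prkcd), epsilon (Prkce), eta (Prkch) and theta (Prkcq) need diacylglycerol but not calcium, and atypical isoforms, here iota (Prkci) and zeta (Prkcz), need neither. Epsilon has a long record in ethanol research, because mice that lack it drink less ethanol, and delta has been linked to the action of ethanol on GABA-A receptors outside synapses.

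The counts were summed per gene and do not separate transcripts of the same gene. Prkcb yields the splice forms beta I and beta II, and an internal start in Prkcz yields PKM zeta, a kinase without the regulatory domain that is abundant in brain, so the values of both genes are sums over such forms. Promoter windows in RefSeq, build GRCm38.p6, were found for 6 of the 8 genes, all but Prkce and Prkch. Each holds 250 bases before an annotated start and 50 after it. Prkcz had 3 such windows, and its outermost and 1 internal window are shown because the count of this gene sums over them. The outer window of Prkcd is shown because this gene varied most between libraries. Capitals mark matches, on either strand, to TGACGTCA (the cyclic AMP response element), to its shorter core TGACG, to the GC box, whose letters are GGGCGG, to the TATA box, whose letters are TATAAA, and to the E-box, whose letters are CACGTG. The full element contains the shorter core on both strands, and an E-box and a GC box overlap in the Prkcd window.
Prkcz outer start, chr4:155361379-155361678, minus strand: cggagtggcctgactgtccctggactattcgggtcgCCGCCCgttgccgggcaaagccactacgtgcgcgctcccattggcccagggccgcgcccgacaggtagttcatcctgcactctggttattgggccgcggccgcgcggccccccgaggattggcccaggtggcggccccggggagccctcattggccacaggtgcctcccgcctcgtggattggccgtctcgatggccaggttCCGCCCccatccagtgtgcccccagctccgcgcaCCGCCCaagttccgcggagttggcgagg
Prkcz internal start, chr4:155345740-155346039, minus strand: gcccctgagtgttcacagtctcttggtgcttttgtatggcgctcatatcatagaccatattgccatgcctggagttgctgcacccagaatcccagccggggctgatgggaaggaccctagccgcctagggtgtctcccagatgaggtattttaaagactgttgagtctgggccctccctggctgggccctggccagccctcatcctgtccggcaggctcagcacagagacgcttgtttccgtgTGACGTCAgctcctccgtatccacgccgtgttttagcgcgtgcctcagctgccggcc
Prkcd outer start, chr14:30626159-30626458, minus strand: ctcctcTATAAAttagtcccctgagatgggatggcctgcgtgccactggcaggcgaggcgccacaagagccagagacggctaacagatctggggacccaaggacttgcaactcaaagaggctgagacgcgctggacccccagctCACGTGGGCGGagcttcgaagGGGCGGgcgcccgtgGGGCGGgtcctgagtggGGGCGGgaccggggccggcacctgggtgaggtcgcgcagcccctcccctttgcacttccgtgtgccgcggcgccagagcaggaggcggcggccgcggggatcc

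The outer Prkcz window had 3 GC boxes and 71.0% G and C, and the printed internal window had no GC box and 59.3% G and C. The other internal window, which is not printed, had 2 GC boxes, 58.3% G and C and no full cyclic AMP response element. A full element stood in the printed internal window, beginning 7 bases before the start. Of 32851 promoter windows in the table, 1.79% held that element, 20.8% its shorter core, 35.7% a GC box, 13.6% the TATA box and 7.15% the E-box. The outer Prkcd window had 4 GC boxes, with a TATA box 244 bases before the start. These matches describe letters and no binding was measured.

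Levels of different genes were compared as RPKM, that is CPM (counts scaled to a common library size with TMM factors) divided by exon length in kilobases, computed from the deposited counts and exon lengths. Prkcb (ENSMUSG00000052889, chromosome 7, 122289125 to 122634401 on mm10, plus strand) was the most abundant isoform per length. It averaged 222 ± 12.8 RPKM with varenicline and 217 ± 10.7 RPKM with saline (SD, n = 6 each), which was 51.1% ± 1.11 of the summed RPKM of the 8 isoforms with varenicline and 49.7% ± 1.46 with saline. Over all 12 libraries Prkcz followed at 77.1 ± 2.46 RPKM and Prkce at 68.0 ± 5.32 RPKM. Prkcz exceeded Prkce in 12 of 12 libraries, although the ranges of these neighbours overlapped between libraries. The next 4 lay close together. Prkca had 18.5 ± 1.44 RPKM, Prkci 17.8 ± 2.05, Prkch 14.6 ± 3.04 and Prkcd 13.4 ± 8.34. Within libraries Prkca exceeded Prkci in 6 of 12, so these neighbours did not differ beyond their spread, and Prkch exceeded Prkcd in 8 of 12. Prkcq was lowest at 6.15 ± 0.681 RPKM, below Prkcd in 12 of 12 libraries.

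**Figure D1:**
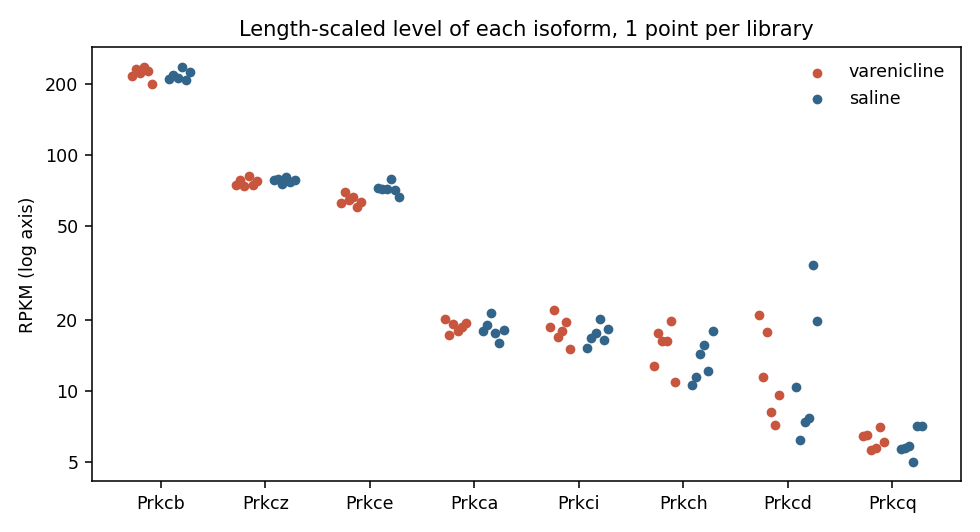
Length-scaled level of each protein kinase C isoform (RPKM, log axis), 1 point per library, with the 6 varenicline libraries left of the 6 saline libraries for each gene. Prkcb lies above all other isoforms, Prkcz and Prkce form the next level, and the points of Prkcd spread most.

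By class, the conventional isoforms summed to 240 ± 12.03 RPKM with varenicline and 235 ± 10.8 RPKM with saline. The isoforms that need diacylglycerol but not calcium (delta, epsilon, eta and theta) summed to 98.4 ± 6.09 RPKM with varenicline and 106 ± 10.9 RPKM with saline. The atypical isoforms summed to 94.8 ± 3.92 RPKM with varenicline and 95.2 ± 3.14 RPKM with saline. The sum over all 8 was 433 ± 18.4 RPKM with varenicline and 436 ± 16.3 RPKM with saline. Each of these differences was smaller than the SD within either group, except for the sum of delta, epsilon, eta and theta, which differed by more than the varenicline SD and less than the saline SD. Within the total, the share of Prkce was 14.8% ± 0.658 with varenicline and 16.5% ± 0.938 with saline.

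Library totals ran from 13340420 to 27917715 counts, and the scarcest isoform had at least 263 counts in each library. Markers of the striatum were abundant, with the 12 listed projection neuron genes summing to between 9023.5 and 14526 CPM with varenicline and between 8310 and 13111 CPM with saline. Marker lists of neighbouring regions had unequal sums in the groups. The 12 cortical excitatory genes summed to between 271 and 1192 CPM with varenicline and between 815 and 1386.5 CPM with saline, with 12 of 12 lower and none at 0 in all libraries. The 9 septal and pallidal genes summed to between 69.0 and 154 CPM with varenicline and between 60.4 and 86.0 CPM with saline, with 8 of 9 higher. After adjustment over 10 lists, no list score passed 0.05 (exact permutation test over all assignments of libraries to groups, two-sided; smallest adjusted p = 0.0650, for the cortical and the astrocyte lists, each with p = 0.0130 unadjusted, beside 0.0260 for the septal list). In the varenicline library numbered 6 the cortical sum was 1192 CPM, inside the saline range.

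The question for each isoform was whether its transcript differed between varenicline and saline after drinking. None of the 8 passed edgeR's quasi-likelihood F test at an adjusted p of 0.05 over all genes, where the background was 0% of the 15148 genes. At an unadjusted p under 0.05 there was 1 of 8, Prkce, against a background of 16.9%. The log2 fold change, varenicline minus saline, was above 0 for 5 of 8 isoforms and below 0 for 3, against 52.3% and 47.7% of all tested genes. Its median over the 8 was 0.03, and over all tested genes 0.0074. The groups overlapped for all 8, where 0.759% of tested genes had groups that did not overlap, 0.429% with varenicline higher and 0.330% with it lower.

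**Figure D2:**
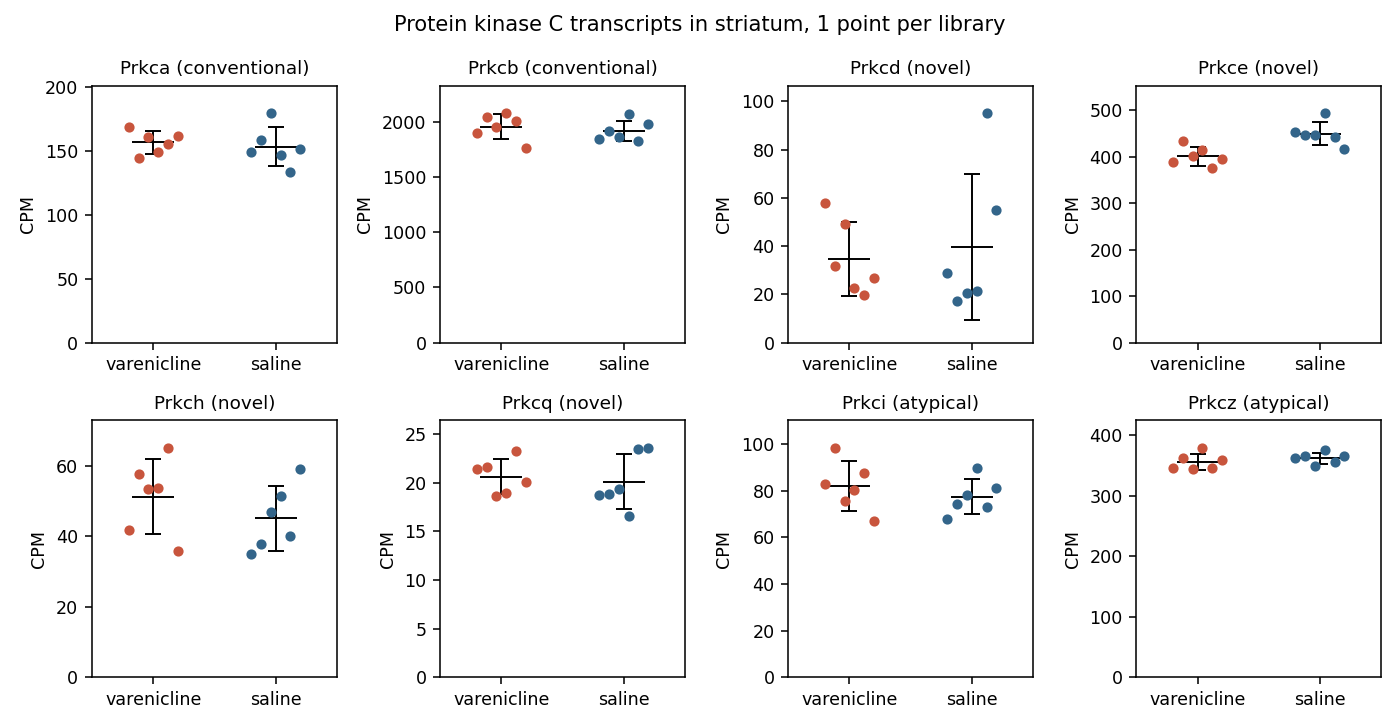
CPM of the 8 isoforms with 1 point per library, varenicline left and saline right in each panel; bars give the mean and SD over 6 libraries, and every axis starts at 0. For Prkce 5 of 6 varenicline libraries lie below all saline libraries, and for Prkcd 1 saline library stands at 95.04 CPM.

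Among delta, epsilon, eta and theta, Prkce (ENSMUSG00000045038, chromosome 17, 86167785 to 86657919, plus strand) had the smallest p and a lower mean with varenicline. It ran from 375 to 433 CPM with a median of 398 CPM with varenicline, and from 416 to 493 CPM with a median of 446 CPM with saline. Each of the 6 varenicline values was under the saline mean, and 5 were below every saline library. The overlap came from the varenicline library numbered 2, at 433 CPM, and the saline library numbered 6, at 416 CPM. The means were 401 ± 20.1 CPM with varenicline and 449 ± 24.9 CPM with saline (SD, n = 6 each). The log2 fold change was -0.16 (SE 0.050, 95% interval -0.27 to -0.06; edgeR unadjusted p = 0.00501, adjusted p = 0.149).

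The call on Prkce depended on the tool. DESeq2 gave an adjusted p of 0.0484 and limma-voom with sample weights 0.0176, with 1 of 8 isoforms called by each against backgrounds of 2.68% and 13.9% of genes. Its sign was negative in all 26 alternatives, and its log2 fold change ran from -0.19 to -0.11. These alternatives reuse the same libraries and are not independent. With the septal score as a covariate the log2 fold change was -0.13 (edgeR unadjusted p = 0.0544), and with the thalamic score -0.17 (edgeR unadjusted p = 0.0053). Adjusted for the score of the cortical list it was -0.16, with an edgeR unadjusted p of 0.0377 and an adjusted p of 0.999. Leaving out the varenicline library numbered 6 as well gave -0.11 (edgeR unadjusted p = 0.271). In the libraries left, every varenicline cortical score was at most 4.58 and every saline score at least 5.01. That fit therefore cannot tell treatment from the score. With all 12 libraries, only the varenicline library numbered 6 reached the saline scores, so the separation is weak there too. Prkce shared 2 of its 4 highest and 2 of its 4 lowest libraries with the summed cortical markers. The part of the cortical markers in the Prkce difference was not tested beyond these fits. In these bulk samples, fewer cells that express a gene and less RNA per cell cannot be told apart.

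**Figure D3:**
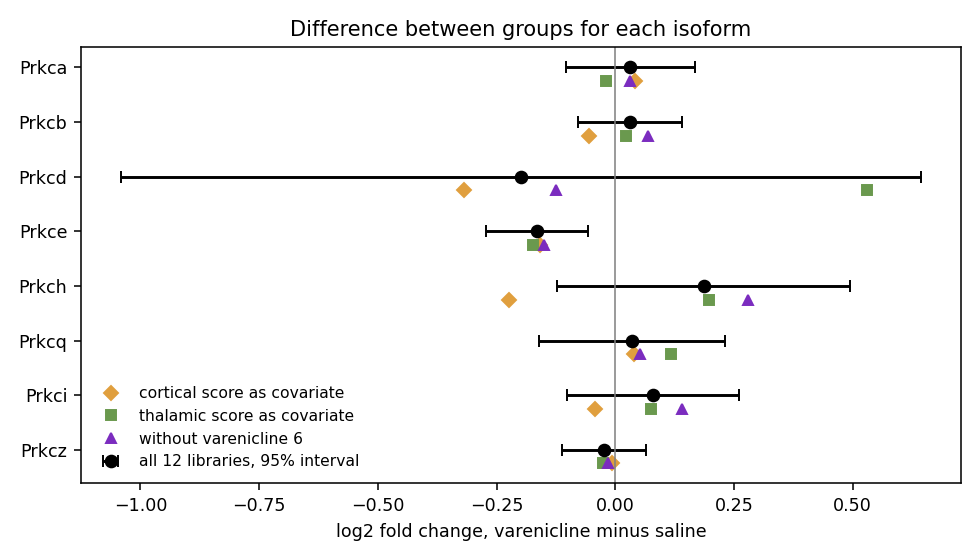
Log2 fold change, varenicline minus saline, for each isoform, with its 95% interval from edgeR in all 12 libraries (black) and the value under 3 other fits (coloured). The interval excludes 0 for Prkce before adjustment, and the widest interval is that of Prkcd, from -1.04 to 0.64.

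Prkcd (ENSMUSG00000021948, chromosome 14, 30595354 to 30626208, minus strand) had by far the widest spread of the 8. It ran from 19.8 to 57.9 CPM with a median of 29.3 CPM with varenicline, and from 17.1 to 95.04 CPM with a median of 25.1 CPM with saline. The highest library had 5.54 times the CPM of the lowest. High values occurred in both groups, with 57.9 and 49.3 CPM in the varenicline libraries numbered 1 and 3, and 95.04 and 55.0 CPM in the saline libraries numbered 5 and 6. The means, 34.7 ± 15.4 CPM with varenicline and 39.6 ± 30.4 CPM with saline, went the other way from the medians. Its log2 fold change of -0.20 (SE 0.40, 95% interval -1.04 to 0.64; edgeR adjusted p = 0.837) became 0.28 without the saline library numbered 5. The SD of log2 CPM within groups was 0.81, larger than that of 98.3% of tested genes.

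Prkcd is known as a marker of thalamic relay neurons and is also expressed in the lateral septum. The 12 thalamic markers, which do not include Prkcd, summed to between 118 and 151 CPM with varenicline and between 115 and 230 CPM with saline. Of the 10 that could be tested 9 were lower and 1 higher, and none of the 12 was at 0 in all libraries. Among the lower ones 2 had an unadjusted p under 0.05, against a background of 9.63% of tested genes. The 2 highest thalamic sums, 230 and 206 CPM, were in the saline libraries numbered 5 and 6. The 2 highest septal and pallidal sums, 154 and 144 CPM, were in the varenicline libraries numbered 1 and 3. Those 4 libraries were the 4 with the most Prkcd, a match that joins the tops of 2 lists. With the thalamic sums alone, Prkcd shared 2 of its 4 highest and 2 of its 4 lowest libraries. With the septal and pallidal sums alone it shared 3 of the 4 highest and 3 of the 4 lowest. With the thalamic score as a covariate the log2 fold change of Prkcd was 0.53 (edgeR unadjusted p = 0.0783, adjusted p = 0.439), and with the septal score it was -0.94 (unadjusted p = 0.0143, adjusted p = 0.533). With both scores, a fit chosen after the data were seen, it was -0.28 (unadjusted p = 0.0463, adjusted p = 0.766). The sign of Prkcd thus depended on which regional markers entered the fit, and their part in the result was not tested further.

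**Figure D4:**
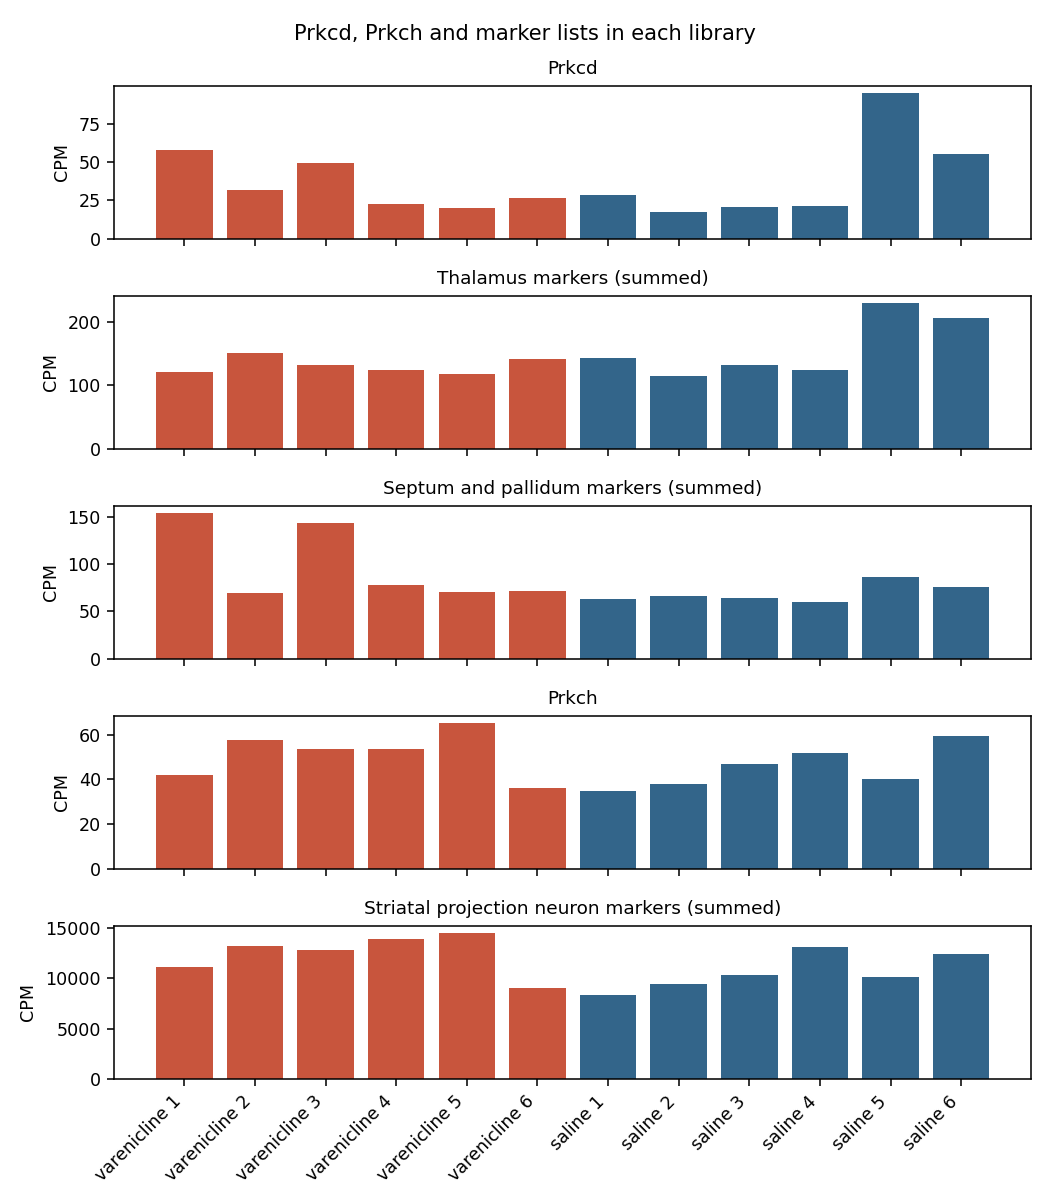
CPM per library of Prkcd, the summed thalamic markers, the summed septal and pallidal markers, Prkch and the summed striatal projection neuron markers, with varenicline libraries left and saline libraries right; bars start at 0. Prkcd is highest in the 2 saline libraries with the most thalamic markers and the 2 varenicline libraries with the most septal markers. Neither marker list alone has all 4 of these libraries as its own 4 highest. Prkch is lowest in the 4 libraries with the least projection neuron markers, which are also the 4 with the most cortical markers (not shown).

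Prkch (ENSMUSG00000021108, chromosome 12, 73585041 to 73778184, plus strand) encodes the eta isoform, best known from epithelia. It ran from 35.9 to 65.1 CPM with a median of 53.6 CPM with varenicline, and from 35.0 to 59.2 CPM with a median of 43.6 CPM with saline. The groups overlapped over almost their whole range, and 4 of 6 varenicline libraries were above the saline mean. The log2 fold change was 0.19 (SE 0.14, 95% interval -0.12 to 0.49; edgeR adjusted p = 0.539). The 4 libraries lowest in Prkch were also the 4 lowest in the summed projection neuron markers, and 3 of the 4 highest were shared. The same 4 lowest libraries had the 4 highest cortical sums, so this match does not set projection neuron markers apart from cortical ones. The projection neuron markers were higher in 12 of 12 cases, and none was at 0. At an unadjusted p under 0.05 there were 5 of them, against a background of 7.26% of tested genes. Adjusting for the cortical score turned the log2 fold change of Prkch to -0.22 (edgeR unadjusted p = 0.133, adjusted p = 0.999). Without the varenicline library numbered 6 it was 0.28 (edgeR unadjusted p = 0.0445, adjusted p = 0.178). In that fit 26.1% of genes had an unadjusted p under 0.05 and 10.7% an adjusted p under 0.05. With limma-voom the log2 fold change of Prkch was 0.36 (limma-voom unadjusted p = 0.00776, adjusted p = 0.0539). There 13.9% of genes had an adjusted p under 0.05.

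Prkcq (ENSMUSG00000026778, chromosome 2, 11172382 to 11301226, plus strand), whose theta isoform is best known from T cells, ran from 18.7 to 23.2 CPM with a median of 20.7 CPM with varenicline, and from 16.6 to 23.6 CPM with a median of 19.1 CPM with saline. The varenicline range lay inside the wider saline range, with 2 saline libraries above all varenicline libraries and 1 below them. The 2 high ones were the saline libraries numbered 5 and 6, which also had the 2 highest thalamic sums. The log2 fold change was 0.03 (SE 0.092, 95% interval -0.16 to 0.23; edgeR adjusted p = 0.879). With the thalamic score as a covariate it was 0.12 (edgeR adjusted p = 0.578), and the part of thalamic tissue was not tested further. Of the 8 listed T cell genes, over all 12 libraries together, Cd3e had 15 counts, Cd3d had 2, Cd3g and Cd8a had 1 each, Cd5 had 19 and Cd2 had 67. Lck had 454 counts, between 17 and 71 in each library, and Prkcq had between 263 and 581 in each. These 8 genes summed to between 84.0 and 130 CPM with varenicline and between 72.8 and 126 CPM with saline. Most of that sum was Cd4, with 26126 counts, which microglia also express. The part of T cells in the Prkcq level was not tested.

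Both conventional isoforms were nearly level between the groups. Prkcb ran from 1764 to 2075 CPM with a median of 1978 CPM with varenicline, and from 1822 to 2068 CPM with a median of 1889 CPM with saline. Its log2 fold change of 0.03 (SE 0.051, edgeR adjusted p = 0.803) had a 95% interval from -0.08 to 0.14. The lowest value was that of the varenicline library numbered 6, and the 4 libraries highest in Prkcb were the 4 with the most projection neuron markers. Of the 4 lowest in Prkcb, 3 were among the 4 lowest in those markers, and the same 3 were among the 4 highest in the cortical sums. Prkca (ENSMUSG00000050965, chromosome 11, 107933387 to 108343888, minus strand) ran from 144 to 169 CPM with a median of 158 CPM with varenicline, and from 133 to 179 CPM with a median of 151 CPM with saline. All varenicline values lay inside the saline range. With a 95% interval from -0.10 to 0.17, its log2 fold change of 0.03 (SE 0.064, edgeR adjusted p = 0.841) turned below 0 in 6 of 26 alternatives. Prkca shares 30 exonic bases with Apoh on the opposite strand, a gene with 23 counts in all; whether strand was used in counting is not stated in the labels.

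Prkcz (ENSMUSG00000029053, chromosome 4, 155260118 to 155361428, minus strand) was the steadiest isoform. It ran from 344 to 379 CPM with a median of 352 CPM with varenicline, and from 349 to 375 CPM with a median of 364 CPM with saline. The highest library exceeded the lowest by a ratio of 1.10. The SD of its log2 CPM within groups was 0.046, and 0.878% of tested genes had a smaller one. Abundant genes have less counting error, and the part of abundance in this spread was not tested. The log2 fold change was -0.02 (SE 0.042, 95% interval -0.11 to 0.06; edgeR adjusted p = 0.807). Prkci (ENSMUSG00000037643, chromosome 3, 30995771 to 31052740, plus strand), the isoform of the Par polarity complex, ran from 66.9 to 98.3 CPM with a median of 81.6 CPM with varenicline, and from 67.8 to 89.8 CPM with a median of 76.4 CPM with saline. The saline values lay inside the varenicline range. The 95% interval of its log2 fold change of 0.08 (SE 0.085, edgeR adjusted p = 0.669) was from -0.10 to 0.26, and adjusting for the cortical score gave -0.04.

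The spread within groups set the isoforms apart from each other more than the fold changes did. The SD of log2 CPM was 0.075 for Prkce and 0.078 for Prkcb, above 8.17% and 9.37% of tested genes. That of Prkca, 0.12, exceeded 29.2% of genes, and those of Prkcq and Prkci, 0.165 and 0.166, exceeded 52.3% and 52.6%. Prkch stood at 0.30, above 79.4% of genes.

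Patterns over the 12 libraries were matched to 14081 named genes by Pearson's r of log2 CPM, as a description without a test, since the best of many genes is given. Penk, the enkephalin precursor of indirect pathway neurons, is itself among the summed projection neuron markers. For Prkch the closest were Penk (r = 0.960) and Chst15 (r = 0.958). For Prkcb they were Slc35d3 (0.940) and Mkrn1 (0.935), and for Prkci Arhgap20 (0.932) and Atp2a2, a calcium pump of the endoplasmic reticulum (0.925). Prkcd was closest to Htatsf1 (0.919) and Zfp423 (0.884), Prkcz to Me3 (0.903) and Fam53a (0.885), and Prkcq to Mybl2 (0.925) and Tcn2 (0.904). Prkca was closest to Mtfr2 (0.908), which averaged 0.963 CPM, and to Zfp169 (0.901). For Prkce, Ubac2 (0.893) and the ubiquitin hydrolase gene Uchl1 (0.835) were closest, and with the group means removed these were 0.775 and 0.588. All these genes share libraries and depth with the isoform they match.

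The other genes of the pathway gave 0 calls at an adjusted p of 0.05 in edgeR in any of 6 lists. Each named gene is also given adjusted for the cortical score and, where that made a call, without the varenicline library numbered 6, a fit in which 10.7% of all genes passed. Apart from that library, all varenicline libraries had a lower cortical score than every saline library. The adjusted values therefore cannot cleanly separate treatment from that score. In limma-voom, where 13.9% of all genes passed, so did Plch2, Gnaq, Dgkz, Dgkb, Unc13c, Unc13b, Unc13a, Sqstm1, Akap5 and Gap43 (adjusted p from 0.00171 to 0.0399). The named genes were picked for small edgeR p in these same counts. Their calls in either fit therefore cannot be weighed against the share of all genes, and shares over the full lists are not given. Upstream, of 15 tested Gq alpha subunit and phospholipase C genes 5 were higher and 10 lower, with 0 and 3 of them at an unadjusted p under 0.05, where the backgrounds were 7.26% higher and 9.63% lower. The smallest p was that of the phospholipase gene Plch2, with 55.0 ± 18.03 CPM with varenicline and 72.5 ± 8.02 CPM with saline and a log2 fold change of -0.40 (edgeR adjusted p = 0.213). Adjusted for the cortical score Plch2 had 0.03, the opposite sign, and without the varenicline library numbered 6 it had -0.58 (edgeR adjusted p = 0.00113). Plcd1 had -0.21, and Gnaq, the alpha subunit of Gq itself, had -0.12, with 161 ± 6.27 CPM with varenicline and 175 ± 13.9 CPM with saline. With the adjustment for the cortical score these were -0.20 for Plcd1 and -0.04 for Gnaq.

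Diacylglycerol kinases end the signal by phosphorylating diacylglycerol. Of 9 tested, 4 were higher and 5 lower, with 1 in each direction at an unadjusted p under 0.05. Together these were 22.2% of the list, against 16.9% of all tested genes. Dgkz had 256 ± 70.6 CPM with varenicline and 346 ± 42.9 CPM with saline and a log2 fold change of -0.43 (edgeR adjusted p = 0.154), and it shares 222 exonic bases with Gm9821 on the opposite strand. DESeq2 gave Dgkz an adjusted p of 0.0446. Its log2 fold change was -0.04 once adjusted for the cortical score (edgeR unadjusted p = 0.655), and -0.59 without the varenicline library numbered 6 (edgeR adjusted p = 0.00055). Dgkb, which is prominent in striatum, had 354 ± 63.1 CPM with varenicline and 285 ± 41.9 CPM with saline and a log2 fold change of 0.31, but -0.06 once adjusted for the cortical score and 0.41 without that library (edgeR adjusted p = 0.00906). Dgkd had -0.07, or -0.0032 adjusted for the cortical score.

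Proteins other than protein kinase C that bind diacylglycerol numbered 12, with 6 higher and 6 lower, 3 and 2 of them at an unadjusted p under 0.05. Both directions together made 41.7% of the list, against 16.9% of all tested genes, and no test of the list was run. The vesicle priming genes Unc13c, Unc13b and Unc13a had log2 fold changes of 0.33, -0.50 and -0.19 (edgeR adjusted p from 0.154 to 0.203). Adjusted for the cortical score these were 0.09, 0.0024 and -0.08, so that Unc13b lost its direction. Without the varenicline library numbered 6 they were 0.38, -0.67 and -0.24 (edgeR adjusted p from 0.00287 to 0.0325). Unc13c averaged 242 ± 37.3 CPM with varenicline and 192 ± 24.8 CPM with saline, and Unc13b averaged 35.2 ± 10.6 CPM with varenicline and 49.7 ± 9.33 CPM with saline.

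Of the 5 related kinases 2 were higher and 3 lower, with 1 in each direction at an unadjusted p under 0.05. The backgrounds were 7.26% of all tested genes higher and 9.63% lower, and no test of this list was run. Pkn2 averaged 41.1 ± 3.27 CPM with varenicline and 36.4 ± 4.09 CPM with saline, a log2 fold change of 0.18 (edgeR adjusted p = 0.269). Pdpk1, the kinase that primes protein kinase C enzymes, had 0.10 (edgeR adjusted p = 0.439). With the adjustment for the cortical score Pkn2 had 0.25 and Pdpk1 had 0.07.

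Of 11 tested scaffold and partner genes 5 were higher and 6 lower, 1 and 2 of them at an unadjusted p under 0.05. The share was 27.3%, against 16.9% of all tested genes. Sqstm1, a partner of the atypical isoforms, had 366 ± 13.1 CPM with varenicline and 399 ± 15.2 CPM with saline (log2 fold change -0.13, edgeR adjusted p = 0.181). Wwc1, which encodes the zeta partner KIBRA, had -0.17, and the anchor gene Akap5 had 0.20. Adjusted for the cortical score Sqstm1 had -0.07, Wwc1 -0.10 and Akap5 -0.06, the last with its sign turned. Without the varenicline library numbered 6 the edgeR adjusted p was 0.0473 for Wwc1 (-0.20) and 0.0221 for Akap5 (0.28).

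Of 10 substrate genes 3 were higher and 7 lower, 0 and 3 of them at an unadjusted p under 0.05. Over both directions that made 30.0%, against 16.9% of all tested genes. The growth cone gene Gap43 had 171 ± 13.7 CPM with varenicline and 198 ± 20.9 CPM with saline, a log2 fold change of -0.21 (edgeR adjusted p = 0.182). Nrgn, which encodes neurogranin, had a log2 fold change of -0.29 (edgeR adjusted p = 0.257). Adjusted for the cortical score Gap43 had -0.16 and Nrgn -0.11. Without the varenicline library numbered 6 they had -0.24 and -0.38 (edgeR adjusted p = 0.0362 and 0.0336). The medians of log2 fold change were -0.08 for substrates, -0.07 for the upstream genes and between -0.031 and 0.027 for the other 4 lists, beside 0.0074 for all tested genes.

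**Figure D5:**
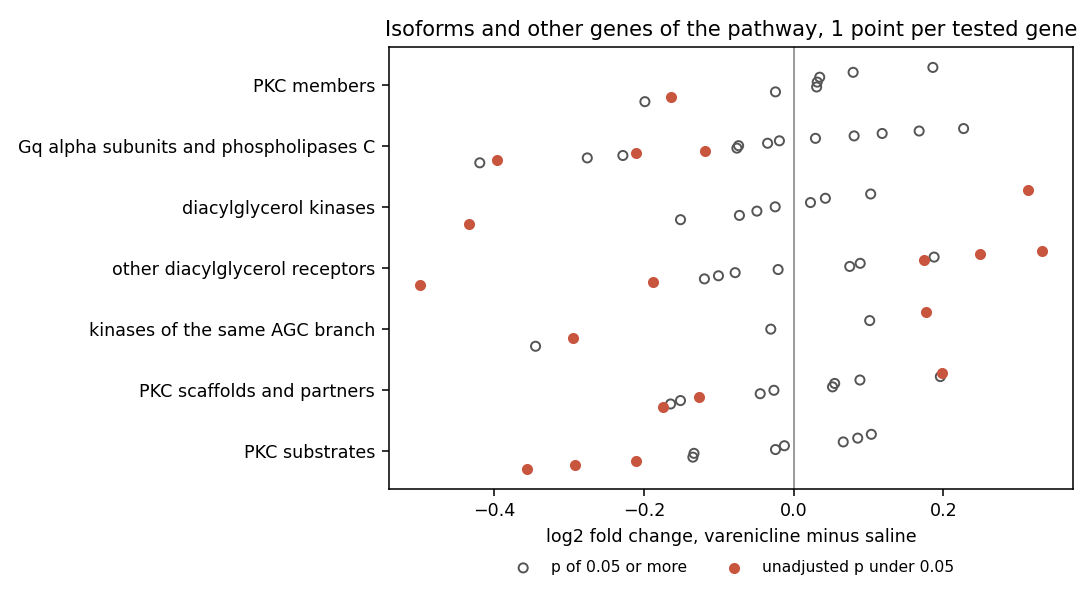
Log2 fold change, varenicline minus saline, for every tested gene of the isoform list and of 6 pathway lists, 1 point per gene, filled where the unadjusted p was under 0.05. Filled points lie on both sides of 0, and none passed the adjusted threshold.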

How the data were processed

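RNA was sequenced from 12 striatal libraries as single reads of 150 nt, per the labels' protocols. The submitters' processing notes name build mm10 and the tools TopHat2 and featureCounts beside Trimmomatic and FastQC, and further Cuffnorm, Cuffdiff and DESeq2, with no version, annotation or strand setting. The main values were raw counts per gene as deposited. The authors also deposited FPKM values and, by its file name from Cuffnorm, a signal of scaled counts; both served as alternatives.

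Columns were matched to samples by the letter that opens each title. Library numbers within a group follow accession order and are names only. Genes passing filterByExpr by group got TMM scaling and were tested in edgeR 4.0.16 (quasi-likelihood F test, Benjamini-Hochberg over all tested genes, threshold 0.05). Log2 CPM used a prior count of 2. A marker score was the mean log2 CPM of a list. Intervals of 95% came from the fit. In the deepest library 3 counts equal 0.109 CPM and in the shallowest 0.221 CPM, a limit from counting error alone. Each of the 66 library pairs differed beyond sampling noise (lowest chi-square per degree of freedom 5.71). Other tools were DESeq2 1.42.0 and limma 3.58.1 in R 4.3.3, and figures used matplotlib 3.10.9. edgeR was tested on simulated data. Alternatives changed the tool, scaling, filter, deposited unit and marker covariates, and left out each library.

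The isoforms and gene lists were chosen with earlier results of these data known. Named genes are the 8 isoforms, up to 3 genes with the smallest p in each pathway list, and the 2 genes most like each isoform, leaving out predicted genes; some genes that this rule names are not reported here.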

Additional observations from a re-analysis of the deposited data

Results flagged for a closer look

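Of 36 sets of 6 values examined, the log2 CPM of each isoform and the 10 marker scores in each group, 3 had a highest or lowest library set apart by a wide gap from the rest; at the chance rate of about 1 in 20, 1.8 would be seen. None of the 3 concerned an isoform. The oligodendrocyte score, a mean log2 CPM, was 8.42 in the varenicline library numbered 6, below the other varenicline libraries at 8.67 to 8.80. In the saline library numbered 6 that score was 8.71, above the others at 8.46 to 8.55. The brain endothelium score of the varenicline library numbered 1 was 5.26, below the others of its group at 5.41 to 5.46.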

How the results depend on the processing

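No paired analysis was possible because every title carries the same replicate number. The count of genes called was 0 in edgeR (2558 at an unadjusted p under 0.05), 406 with DESeq2, 2099 with limma-voom and 12 after adjusting for the cortical score. Leaving out each library, it ran from 0 to 1628, with 1628 without varenicline 6 and 4 without varenicline 2. The count of isoforms called was 0, but 1 with DESeq2 and 1 with limma-voom, each time Prkce, and 0 without any single library. The mean level of Prkcz was 91.6 in the deposited FPKM and 77.1 in RPKM; the cause was not tested. The signs of several log2 fold changes turned, those of Unc13b (-0.50), Plch2 (-0.40), Unc13c (0.33), Dgkb (0.31) and Prkcd (-0.20) among them, and the cause was not tested. With limma-voom Prkca had -0.0082 and Prkcd 0.079. With the cortical score Prkcb had -0.055, Prkch -0.22, Prkci -0.042, Plch2 0.027, Dgkb -0.057, Unc13b 0.0024 and Akap5 -0.061. With that score and without varenicline 6 Prkca had -0.0025, Prkch -0.19, Prkcz 0.013, Gnaq 0.030 and Unc13c -0.053. In that fit the cortical score separated the groups completely, so treatment and score cannot be told apart. With the septal score Prkca had -0.00034 and Prkcz 0.0089, with the thalamic score Prkca -0.019 and Prkcd 0.53, and with both Prkca -0.072 and Prkcz 0.012. Leaving out each library, Prkca ran from -0.0058 to 0.091, Prkcd from -0.40 to 0.28 and Prkcq from -0.0087 to 0.085. The isoforms had at least 263 counts in each library; calls at matched depth were not tested.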
